A study of Sus scrofa with 12 samples.

Results

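The genes described here are 6 transcription factors that drive the epithelial-to-mesenchymal transition (EMT), TWIST1, TWIST2, SNAI1, SNAI2, ZEB1 and ZEB2, together with VIM, which encodes the intermediate filament protein vimentin. They were taken by gene symbol, and all 7 had 1 row each among the 24358 genes measured by RNA-seq in 12 libraries of pig induced pluripotent stem (iPS) cells. The cells were PC-iPS cells, a line reprogrammed from pig pericytes and grown on feeder cells in LCDMV medium (LIF, CHIR99021, dimethindene, minocycline and vitamin C). The 4 groups of 3 libraries were wild-type (WT) PC-iPS cells, PC-iPS cells with a tdTomato reporter knocked in at NANOG, knock-in cells given Activin A, and knock-in cells given SB431542. Activin A is a ligand of the Activin/TGF-beta branch that signals through SMAD2 and SMAD3, and SB431542 inhibits the type I receptors of that branch. In the cytokine experiments of the study LIF was left out of the medium, and the labels give no dose for the sequenced cells. The comparison of knock-in with WT cells asks how the reporter lines differ from their parent cells, and the comparison of Activin A with SB431542 asks what this signalling branch does in the reporter lines.

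Several features limit these groups as models. The knock-in lines were 3 transfected cultures, numbered 1 to 3, that were selected with puromycin and sorted for tdTomato, so that knock-in and WT cells differ in drug selection and sorting as well as in the reporter. They were not derived from single cells, and each may hold cells with 1 or both alleles of either NANOG locus edited. The labels number the libraries of every group 1 to 3, but they do not state that libraries 1 to 3 of the treated groups are lines 1 to 3. No source used here says that the WT libraries came from separate cultures, so the p-values measure only the spread between these libraries, which may be technical. The Activin A and SB431542 libraries lie in another table than the untreated libraries, and the tables were not tested against each other. Before RNA extraction the study plated the dissociated cells for a short time and took those still in suspension, to leave attached feeder cells behind. Its cytokine screens used Matrigel in place of feeders, and no source used here states which applies to the sequenced Activin A and SB431542 cells. Because these are bulk samples, fewer cells that express a gene and less RNA of that gene per cell cannot be told apart.

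EMT is the switch by which epithelial cells lose their junctions and polarity and become motile, in gastrulation, in neural crest emigration and in carcinoma. The TWIST proteins are basic helix-loop-helix factors that act as dimers with E proteins. The SNAIL proteins, encoded by SNAI1 and SNAI2, are zinc-finger repressors of E-cadherin and other junction genes. The ZEB proteins carry zinc-finger clusters around a homeodomain and repress the same class of genes, held in check by the miR-200 family. Vimentin is the filament protein of mesenchymal cells and a standard readout of the transition. Reprogramming of somatic cells to iPS cells passes through the opposite switch, and TGF-beta signalling is a textbook inducer of SNAI1, SNAI2 and the ZEB genes.

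By symbol, the 7 genes were found in the RefSeq annotation of Sscrofa11.1, where each is annotated as protein coding. TWIST1 (ENSSSCG00000015370) lies on chromosome 9 from 88286911 to 88290131, and TWIST2 (ENSSSCG00000016343) on chromosome 15 from 138228640 to 138276341. SNAI1 (ENSSSCG00000032613) lies on chromosome 17 from 51546446 to 51552498, and SNAI2 (ENSSSCG00000039568) on chromosome 4 from 79264880 to 79268475. ZEB1 (ENSSSCG00000011025) lies on chromosome 10 from 42013114 to 42216139, and ZEB2 (ENSSSCG00000021343) on chromosome 15 from 7498879 to 7631347. VIM (ENSSSCG00000011033) lies on chromosome 10 from 43516441 to 43526172, 1300301 bases from ZEB1. The paralogues of each pair are thus on different chromosomes.

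All levels below are FPKM, fragments mapped to a gene scaled to its length and to the mapped fragments of its library, so that levels of different genes may be set side by side. Absolute depth is unknown from these values. The depth of the libraries relative to each other, read from the steps between low values with knock-in library 1 set to 1, was 0.566 to 0.633 in WT, 0.732 to 1 in knock-in, 0.859 to 0.979 in Activin A and 0.841 to 0.946 in SB431542 libraries. The edited gene, NANOG, stood at 9.71 to 27.6 FPKM in WT, 52.0 to 101 FPKM in knock-in, 109 to 195 FPKM in Activin A and 11.8 to 27.2 FPKM in SB431542 libraries.

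By group means the family was made up mainly of ZEB1, ZEB2 and TWIST1 in these cells, with TWIST2 lower and the SNAIL genes lowest. Averaged over the libraries of a group, ZEB1 stood between 19.4 and 29.5 FPKM, ZEB2 between 10.5 and 12.8 FPKM, TWIST1 between 4.48 and 14.2 FPKM and TWIST2 between 0.933 and 7.68 FPKM. SNAI1 stood between 0.288 and 2.16 FPKM and SNAI2 between 0.0859 and 0.269 FPKM. Single libraries departed from the order of these means. SNAI1 (3.57 FPKM) exceeded TWIST2 (2.72 FPKM) in Activin A library 2, as it did in WT library 1 (0.533 and 0.278 FPKM). In Activin A library 3 TWIST2 (8.11 FPKM) exceeded TWIST1 (6.96 FPKM). VIM was among the most abundant transcripts, at rank 81 to 212 of the 24358 genes over the 12 libraries. The 6 factors summed to 48.4 ± 5.78 FPKM in WT, 49.4 ± 5.26 in knock-in, 50.8 ± 6.16 in Activin A and 53.7 ± 4.80 in SB431542 cells (SD, n = 3 each), and the ranges of this sum overlapped between all groups.

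**Figure D1:**
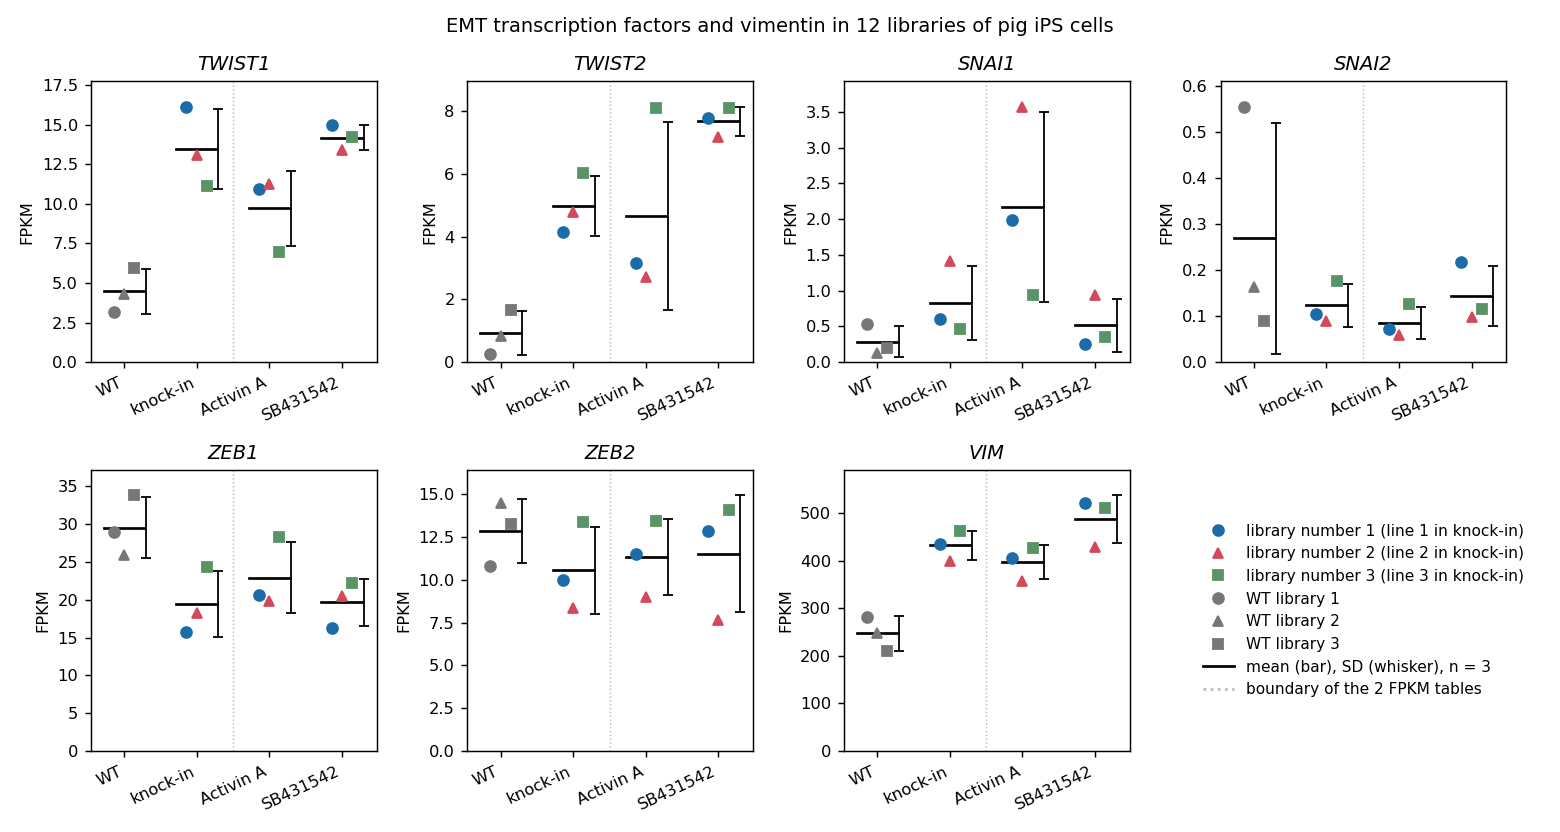
FPKM of each gene (vertical axes) in every library by group, with colour and shape giving the library number, grey for WT, the group mean as a bar, the SD of 3 libraries as a whisker, and a dotted line between the separately made tables. TWIST1, TWIST2 and VIM lie lowest in the WT libraries, ZEB1 lies lower in the 3 knock-in libraries than in the 3 WT libraries, and SNAI1 reaches its highest level, 3.57 FPKM, in Activin A library 2.

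Knock-in cells held more TWIST1, TWIST2 and VIM than WT cells. TWIST1 rose 3.01-fold and TWIST2 rose 5.34-fold as ratios of mean FPKM, and VIM rose 1.75-fold. ZEB1 was 0.658 times its WT level without passing the test, and SNAI1, SNAI2 and ZEB2 had libraries that overlapped between the groups. In this comparison 14014 genes were tested with limma on log2(FPKM + 1), and a call needed both an adjusted p (Benjamini-Hochberg) no greater than 0.05 and a log2 fold change of 1 or more in size. TWIST1 and TWIST2 were 2 of the 7 genes called, both higher, where 2.31% of all genes were called and 1.61% were called higher. Adding 1 before the logarithm understates the change of genes at low levels, which touches SNAI1, SNAI2 and the WT level of TWIST2.

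TWIST1 stood at 3.16, 4.29 and 5.98 FPKM in WT libraries 1 to 3 and at 16.1, 13.1 and 11.2 FPKM in knock-in libraries 1 to 3. Each knock-in library was above each WT library. The log2 fold change was 1.42 (SE 0.22, 95% confidence interval 0.90 to 1.93, limma adjusted p = 0.018), and it was above that of 98.9% of the genes tested. With 1 library removed at a time the value stayed between 1.24 and 1.61, but the adjusted p rose to 0.073 without knock-in library 1 and to 0.065 without knock-in library 2, so the call was lost there.

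TWIST2 stood at 0.278, 0.848 and 1.67 FPKM in WT and at 4.14, 4.77 and 6.03 FPKM in knock-in libraries 1 to 3. The groups did not overlap here either, and the WT libraries differed among themselves several-fold. Its log2 fold change was 1.68 (SE 0.27, 95% confidence interval 1.05 to 2.32, limma adjusted p = 0.020). With libraries left out in turn it lay between 1.42 and 1.95, and the call was lost without knock-in library 1 (adjusted p = 0.059), knock-in library 2 (0.065) or WT library 2 (0.054).

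Because TWIST2 rose by the larger factor, the ratio of TWIST1 to TWIST2 was 6.67 ± 4.14 in WT and 2.83 ± 1.03 in knock-in cells (SD, n = 3 each). The WT ratio ran from 3.58 to 11.4, wider than the difference between the groups, and no test was made on it.

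SNAI1 stood at 0.533, 0.133 and 0.196 FPKM in WT and at 0.606, 1.42 and 0.461 FPKM in knock-in libraries. Knock-in library 3 lay below WT library 1, so the groups overlapped although the ratio of the means was 2.88. On the log2 scale the difference was 0.48 (SE 0.21, 95% confidence interval -0.00 to 0.97, limma adjusted p = 0.18), and without knock-in library 2 it was 0.26 (adjusted p = 0.39). SNAI2 stood at 0.556, 0.163 and 0.0889 FPKM in WT and at 0.105, 0.0891 and 0.178 FPKM in knock-in libraries. WT library 1 was the only one of these above 0.2 FPKM, and the groups otherwise covered one range. Its log2 fold change was -0.16 (SE 0.14, adjusted p = 0.49), and without WT library 1 it was -0.0024.

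ZEB1 stood at 29.0, 25.9 and 33.8 FPKM in WT and at 15.7, 18.3 and 24.3 FPKM in knock-in libraries. Every knock-in library lay below every WT library, yet the log2 fold change of -0.59 (SE 0.17, 95% confidence interval -1.001 to -0.19) had a limma adjusted p of 0.081 and was not called. ZEB2 stood at 10.8, 14.5 and 13.2 FPKM in WT and at 9.96, 8.35 and 13.3 FPKM in knock-in libraries. Those ranges overlapped, and the log2 fold change was -0.27 (SE 0.19, 95% confidence interval -0.71 to 0.16, adjusted p = 0.37). With 1 library left out the ZEB2 value lay between -0.44 and -0.13.

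VIM stood at 283, 249 and 210 FPKM in WT and at 435, 399 and 462 FPKM in knock-in libraries. The groups were set well apart. VIM rose by 0.81 on the log2 scale (SE 0.13, 95% confidence interval 0.51 to 1.11, limma adjusted p = 0.019), which passed the test but lies under the fold needed for a call, where 7.22% of all genes passed on the adjusted p alone and 4.88% passed in the higher direction. Without knock-in library 1 its adjusted p was 0.076, and without knock-in library 2 it was 0.055. Vimentin mRNA made up 0.0644% of all FPKM in WT and 0.115% in knock-in libraries.

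The groups did not overlap for 4 of the 7 genes (TWIST1, TWIST2, ZEB1 and VIM), where 35.7% of all genes tested did not overlap. An exact two-sided permutation test of 3 against 3 libraries gave p = 0.1 for each of them, the smallest it can give.

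**Figure D2:**
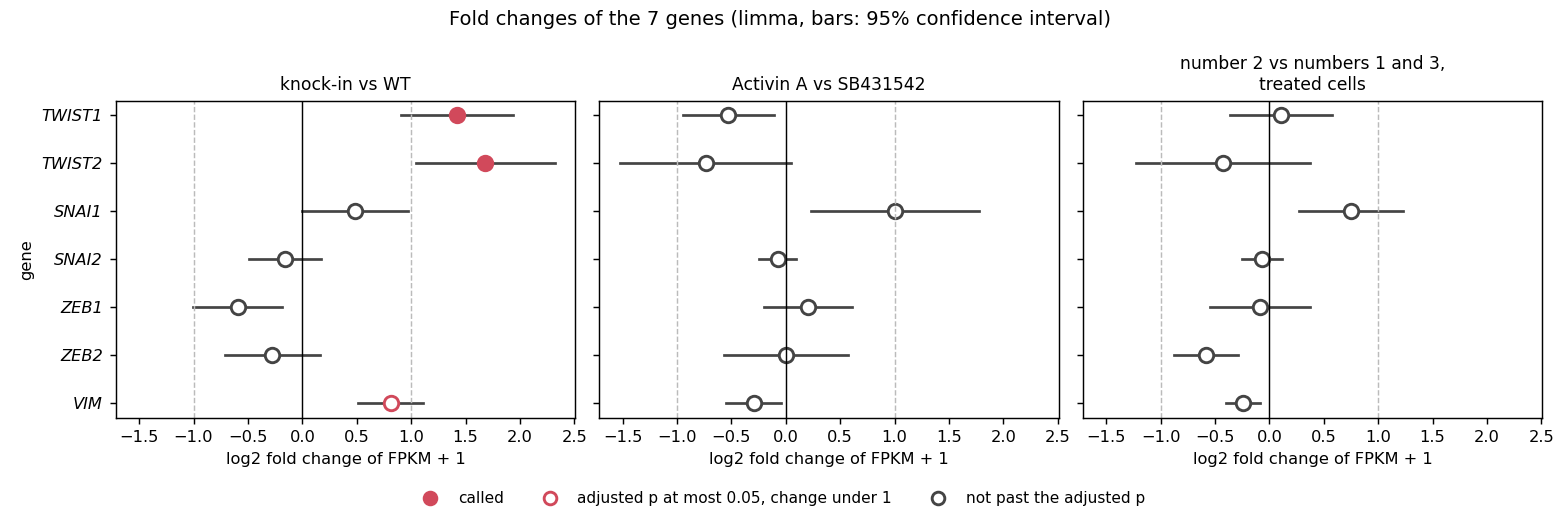
Log2 fold change of FPKM + 1 for each gene (points) with its 95% confidence interval from limma (bars), for knock-in against WT, Activin A against SB431542 and libraries numbered 2 against 1 and 3 in treated cells; filled red points are called, open red points pass the adjusted p alone, and dashed lines mark a change of 1. TWIST1 and TWIST2 are called for knock-in against WT, at 1.42 and 1.68, and no gene is called in the other panels.

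The genes around these factors were followed in lists of their partners, regulators and targets. Among 20 partners and co-repressors of the EMT factors, 14 were higher in knock-in than in WT cells. Of these 3 were called higher and none lower, where 1.61% of all genes were called higher. ID3 and ID1 encode helix-loop-helix proteins without a DNA-binding region that sequester the E proteins on which TWIST dimers depend, and AJUBA encodes a LIM protein that SNAIL recruits as co-repressor. The log2 fold change was 1.96 for ID3 (SE 0.28, adjusted p = 0.015), 1.71 for AJUBA (SE 0.22, adjusted p = 0.010) and 1.56 for ID1 (SE 0.27, adjusted p = 0.023). The count called in this list was 2 without knock-in library 1, knock-in library 2, WT library 1 or WT library 2. Of 18 regulators of the stability and activity of the factors 9 were higher, and 1 was called. That gene, LATS2, a Hippo-pathway kinase that also phosphorylates SNAI1, rose from 5.61 ± 0.320 to 15.4 ± 1.37 FPKM (log2 fold change 1.31, SE 0.12, adjusted p = 0.0041). The median log2 fold change was 0.26 over the partners and -0.03 over the regulators, against -0.00 over all genes, of which 49.8% were higher.

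Of 13 other transcription factors linked to EMT that were tested, 8 were higher, where 49.8% of all genes were. In this list 2 were called, both higher, where 1.61% of all genes were called higher. PRRX2, a paired-related homeobox factor of mesenchyme, had a log2 fold change of 1.40 (SE 0.30, adjusted p = 0.039), and TEAD4, the DNA-binding partner of YAP, had 1.07 (SE 0.16, adjusted p = 0.017). The count called higher in this list was 0 without knock-in library 1, 0 without knock-in library 2, and 1 without knock-in library 3, WT library 1, WT library 2 or the filter on low values. The median of the list was 0.22.

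Mesenchymal genes other than VIM were also mostly higher. Of 29 tested, 24 were higher in knock-in cells, 7 were called higher, where 1.61% of all genes were, and none lower, with a median log2 fold change of 0.51. TAGLN, an actin-binding protein of smooth muscle and myofibroblasts, rose from 20.9 ± 5.73 to 403 ± 90.3 FPKM (log2 fold change 4.21, SE 0.23, adjusted p = 0.00066). CCN1, a matricellular protein, rose by 3.06 on the log2 scale (SE 0.52, adjusted p = 0.022), and TNC, the matrix glycoprotein tenascin-C, rose by 2.71 (SE 0.42, adjusted p = 0.018). The other genes called were CCN2, TPM1, ACTA2 and MYL9. The count called was 4 without knock-in library 1 and 4 without knock-in library 2.

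Epithelial genes lay on the same side as the mesenchymal genes. Of 21 tested, 19 were higher in knock-in cells, where 49.8% of all genes were, with a median log2 fold change of 0.37. In this list 1 was called, higher, where 1.61% of all genes were called higher. KRT8, the keratin of simple epithelia, rose from 6.45 ± 2.74 to 190 ± 208 FPKM (log2 fold change 4.13, SE 0.75, adjusted p = 0.025), and the SD of the knock-in level exceeded its mean. This call was lost without knock-in library 1, WT library 1 or WT library 2, and without the filter on low values. CDH1, which encodes E-cadherin, the textbook target that SNAIL, ZEB and TWIST repress, was picked for that role after its values were seen. It stood at 1.56 ± 0.465 FPKM in WT and 8.36 ± 7.96 FPKM in knock-in cells (log2 fold change 1.55, SE 0.53, adjusted p = 0.11), and its SD in knock-in cells was close to its mean.

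Of 9 other intermediate filament and associated genes, 7 were higher and 1 was called, lower, where 0.706% of all genes were called lower. INA, which encodes the neuronal filament protein alpha-internexin, fell from 13.9 ± 2.85 to 5.16 ± 2.20 FPKM (log2 fold change -1.31, SE 0.28, adjusted p = 0.036), and it was not called without knock-in library 1, knock-in library 2, WT library 1 or WT library 2, or without the filter. NES (0.80, SE 0.13, limma adjusted p = 0.019) and LMNA (0.84, SE 0.18, limma adjusted p = 0.039) were higher. Like VIM they passed on the adjusted p alone, as 4.88% of all genes did in that direction. Of 20 TGF-beta signalling genes 12 were higher and 1 was called, higher, where 49.8% of all genes were higher and 1.61% were called higher. TGIF1, a homeobox co-repressor of SMAD2 and SMAD3, rose from 27.7 ± 4.08 to 71.5 ± 12.4 FPKM (log2 fold change 1.33, SE 0.16, adjusted p = 0.0093).

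**Figure D3:**
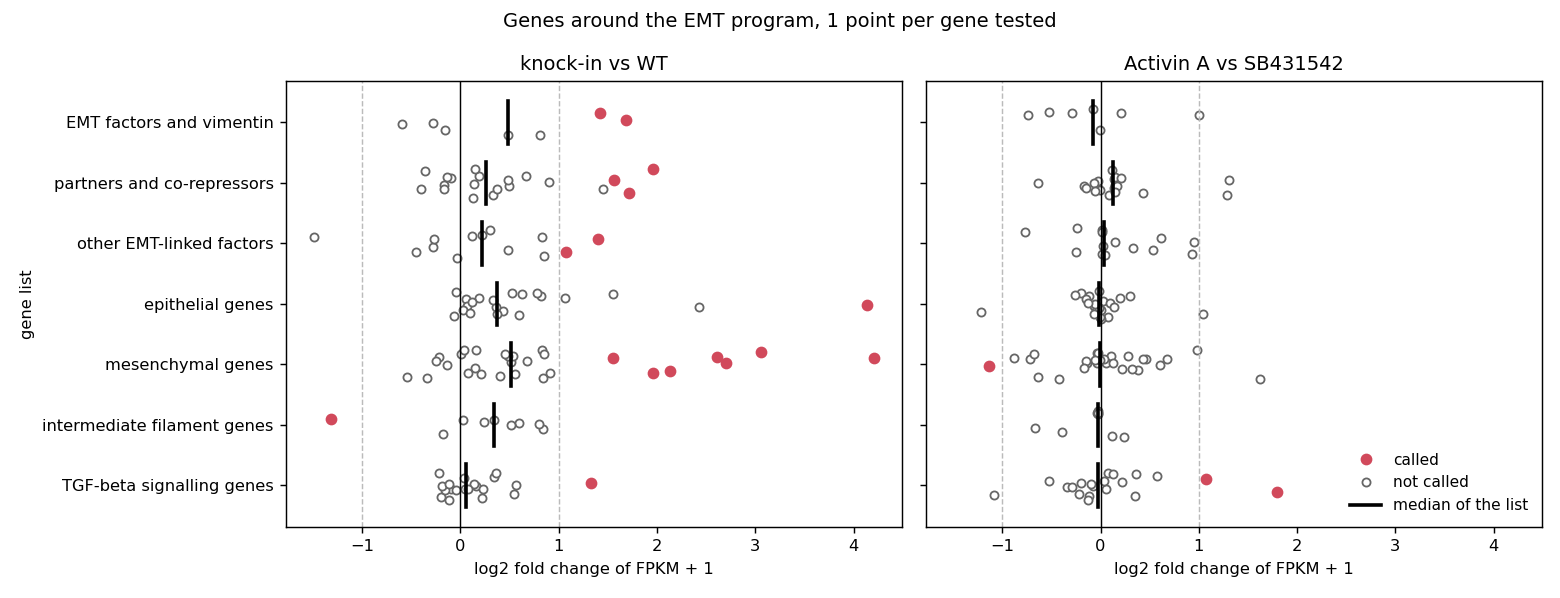
Log2 fold change of FPKM + 1 for every tested gene of the EMT factors with vimentin and of 6 of the lists (points, filled where called), with the median of each as a bar, for knock-in against WT and Activin A against SB431542; the regulators of stability and activity are not drawn. For knock-in against WT the median is 0.51 over the mesenchymal and 0.37 over the epithelial genes, and for Activin A against SB431542 these medians are -0.00 and -0.02.

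Markers of other cell types also moved between these groups. The summed FPKM of 10 fibroblast or feeder markers was 9.04 to 15.0 in WT and 22.8 to 46.2 in knock-in libraries, and that of 10 pericyte markers was 30.0 to 33.2 and 54.3 to 57.7. Among the defining markers, the fibrillar collagen COL1A1 stood lower in knock-in (0.345 to 0.782 FPKM) than in WT libraries (0.838 to 1.46), COL1A2 stood at 9.02 to 12.7 against 3.56 to 7.34 FPKM, the pericyte receptor PDGFRB at 8.19 to 11.4 against 1.75 to 3.23 FPKM, and RGS5 under 1 FPKM in both groups. The summed trophectoderm markers were 18.0 to 25.3 FPKM in WT and 87.6 to 528 FPKM in knock-in libraries, with CDX2 listed at 0 in all 12 libraries. In the test 1.61% of all genes were called higher. Among them was 1 of 6 feeder or fibroblast markers, DCN (log2 fold change 1.49, adjusted p = 0.031), as were 2 of 9 pericyte markers, PDGFRB (1.64, adjusted p = 0.012) and ACTA2 (2.61, adjusted p = 0.0016). All 7 trophectoderm markers tested were higher, with a median log2 fold change of 1.56, and 3 were called. These were KRT8 and TEAD4, described above, and TFAP2A (5.51 ± 0.833 to 18.8 ± 6.60 FPKM, log2 fold change 1.56, limma adjusted p = 0.019). Of 8 pluripotency markers tested 5 were higher, where 49.8% of all genes were. The 2 called were NANOG (2.06, adjusted p = 0.025) and LIN28A (2.08, adjusted p = 0.018), both higher. The pluripotency markers SOX2 (39.1 to 45.7 in WT and 64.0 to 67.7 FPKM in knock-in) and LIN28A (32.8 to 47.6 and 108 to 285 FPKM) were present in every library and higher in knock-in libraries. Feeder cells had been depleted by plating before RNA extraction, and the part of these cell types in the levels of TWIST1, TWIST2 and VIM was not tested.

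None of the 7 genes was called for Activin A against SB431542, where 0.0929% of 13999 genes tested were called. SNAI1 was the member with the largest ratio, at 4.19 times its SB431542 level under Activin A, while TWIST1, TWIST2 and VIM stood at 0.685, 0.607 and 0.814 times theirs. SNAI2, ZEB1 and ZEB2 differed by less than the spread between libraries. The groups did not overlap for TWIST1 and VIM, where 20% of all genes did not overlap.

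SNAI1 stood at 1.98, 3.57 and 0.937 FPKM under Activin A and at 0.251, 0.939 and 0.359 FPKM under SB431542 in libraries 1 to 3. SB431542 library 2, at 0.939 FPKM, lay just above Activin A library 3, at 0.937 FPKM, so the groups overlapped, while within each number the Activin A library was the higher one, by 7.90, 3.80 and 2.61 times. The log2 fold change was 1.00 (SE 0.32, 95% confidence interval 0.23 to 1.77, limma adjusted p = 0.29). Libraries with the same number deviated together between these groups, and with the number as a block the standard error fell to 0.17 and the adjusted p to 0.059.

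TWIST1 stood at 10.9, 11.2 and 6.96 FPKM under Activin A and at 15.0, 13.4 and 14.2 FPKM under SB431542. All Activin A libraries were the lower ones, with library 3 the lowest. Its log2 fold change was -0.53 (SE 0.18, 95% confidence interval -0.95 to -0.11, adjusted p = 0.30), and without Activin A library 3 it was -0.33 (adjusted p = 0.33). TWIST2 stood at 3.15, 2.72 and 8.11 FPKM under Activin A and at 7.77, 7.18 and 8.09 FPKM under SB431542. Numbers 1 and 2 were lower under Activin A, at 0.406 and 0.378 times the SB431542 level, and number 3 stood level, at 1.00 times. The log2 fold change of TWIST2 was -0.74 (SE 0.33, 95% confidence interval -1.52 to 0.05, adjusted p = 0.42), and it was -1.14 (adjusted p = 0.095) without Activin A library 3.

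VIM stood at 406, 357 and 427 FPKM under Activin A and at 522, 429 and 511 FPKM under SB431542. Within each number the Activin A library was lower, at 0.778, 0.833 and 0.836 times the SB431542 level. The log2 fold change was -0.29 (SE 0.11, 95% confidence interval -0.55 to -0.04, adjusted p = 0.33), and with the number as a block it passed the test (SE 0.04, adjusted p = 0.048) without reaching the fold for a call. In the blocked fit 2.88% of all genes passed on the adjusted p alone, 1.21% in the lower direction, and 0.707% were called, none of them among the 7 genes.

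ZEB1 stood at 20.6, 19.8 and 28.3 FPKM under Activin A and at 16.2, 20.5 and 22.2 FPKM under SB431542 (log2 fold change 0.21, SE 0.17, adjusted p = 0.65). With 1 library left out the ZEB1 value ran from 0.049 to 0.30. ZEB2 stood at 11.5, 9.0 and 13.4 FPKM and at 12.8, 7.65 and 14.1 FPKM (log2 fold change -0.00, SE 0.24, 95% confidence interval -0.57 to 0.57, adjusted p = 1.00). SNAI2 stood between 0.0598 and 0.126 FPKM under Activin A and between 0.0978 and 0.218 FPKM under SB431542 (log2 fold change -0.07, SE 0.07, adjusted p = 0.70). Under both treatments ZEB2 was lowest in library 2 and highest in library 3, and ZEB1 was highest in library 3.

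**Figure D4:**
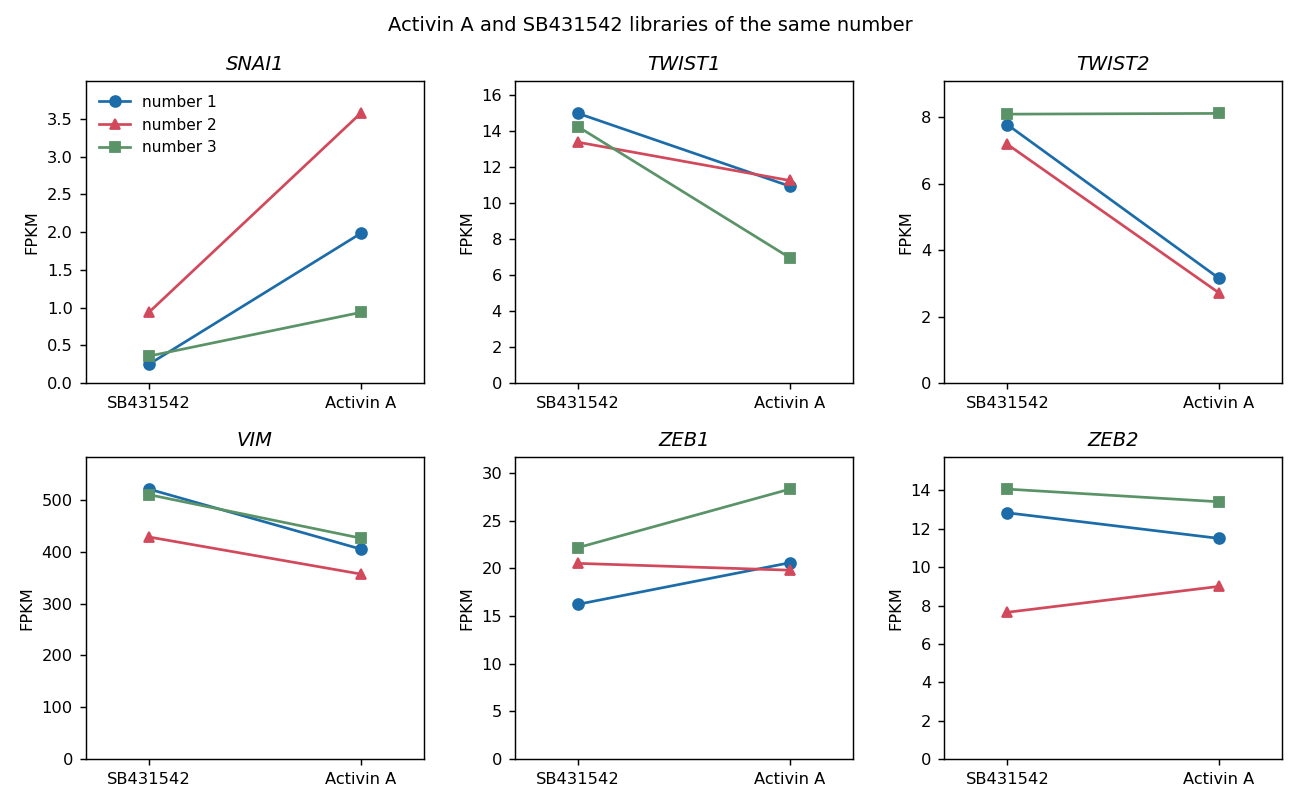
FPKM of 6 of the genes (vertical axes) under SB431542 and Activin A, with a line joining the libraries of the same number; SNAI2, at most 0.218 FPKM here, is not drawn. SNAI1 climbs and VIM declines from SB431542 to Activin A along all 3 lines, number 2 is highest for SNAI1 and lowest for ZEB2 and VIM under both treatments, and the TWIST2 line of number 3 is level (8.09 and 8.11 FPKM).

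Genes of the signalling branch itself were also compared between the treatments. Of 20 TGF-beta signalling genes tested 10 were higher under Activin A, and 2 were called higher, where 0.0571% of all genes were called higher. SMAD7, the feedback inhibitor of the receptors, stood at 7.34 ± 0.698 FPKM under Activin A and 1.41 ± 0.321 FPKM under SB431542 (log2 fold change 1.80, SE 0.14, adjusted p = 0.024). LEFTY2, a secreted antagonist of NODAL, stood at 1.117 ± 0.302 FPKM under Activin A and was listed at 0 in the 3 SB431542 libraries (log2 fold change 1.07, SE 0.12, adjusted p = 0.042). NANOG had a log2 fold change of 3.18 (SE 0.35, adjusted p = 0.042). With any 1 library left out neither SMAD7 nor LEFTY2 was called, and the same held for ACTA2 below. No gene at all, NANOG included, was called higher without Activin A library 2, SB431542 library 1 or SB431542 library 3. In the blocked fit a further gene of this list, the ligand gene TGFB2, was called lower under Activin A (log2 fold change -1.09, SE 0.13, adjusted p = 0.032).

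Of 29 mesenchymal genes 14 were higher under Activin A and 1 was called, lower, where 0.0357% of all genes were called lower. ACTA2, smooth muscle alpha-actin, stood at 8.32 ± 0.887 FPKM under Activin A and 19.4 ± 1.07 FPKM under SB431542 (log2 fold change -1.13, SE 0.10, adjusted p = 0.035), and in the blocked fit CCN2, a matricellular protein, was also called, higher (log2 fold change 1.62, SE 0.23, adjusted p = 0.045). No partner or co-repressor (20 tested, 12 higher), regulator (18, 10 higher), other EMT-linked factor (14, 11 higher), epithelial gene (22, 9 higher) or intermediate filament gene (8, 2 higher) was called, while the blocked fit called ID2, an inhibitor of E proteins, higher (1.28, SE 0.11, adjusted p = 0.019) and KRT8 lower (-1.21, SE 0.08, adjusted p = 0.015). Over all genes 49.1% were higher under Activin A. Fibroblast or feeder markers summed to 44.6 to 70.1 FPKM under Activin A and 10.04 to 17.7 FPKM under SB431542, and pericyte markers to 46.3 to 53.7 and 62.9 to 65.2 FPKM. Of 6 fibroblast or feeder markers tested, 4 were higher under Activin A. COL1A1 stood at 0.214 to 0.597 FPKM (median 0.323) under Activin A and 0.366 to 0.525 FPKM (median 0.521) under SB431542. None of the 6 was called without the block, and the blocked fit called COL3A1 (3.08, adjusted p = 0.012) and COL1A2 (1.59, adjusted p = 0.024) higher under Activin A. Of the other marker lists it called the trophectoderm factors GATA2 (2.28, adjusted p = 0.034) and TFAP2C (1.51, adjusted p = 0.019) higher and LIN28A (-1.55, adjusted p = 0.015) lower. KRT8, called lower in that fit as given above, is in the trophectoderm list too. Of 7 trophectoderm markers tested, 4 were higher under Activin A. Whether these cells had grown on feeders is not given in the sources used here, and the part of these markers in the level of VIM or SNAI1 was not tested.

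The treated groups are set beside the untreated groups here as levels only. TWIST1 was highest under SB431542 (14.2 ± 0.801 FPKM), followed by untreated knock-in (13.5 ± 2.51), Activin A (9.71 ± 2.39) and WT cells (4.48 ± 1.42). Only the lowest neighbours in this order, Activin A and WT, had no overlap. TWIST2 had the same order, at 7.68 ± 0.461, 4.98 ± 0.963, 4.66 ± 2.997 and 0.933 ± 0.700 FPKM. Its SB431542 and knock-in libraries did not overlap, nor did its Activin A and WT libraries, and knock-in and Activin A means were closer than their spread. VIM followed this order too, at 487 ± 50.6, 432 ± 31.4, 397 ± 35.6 and 247 ± 36.4 FPKM, and Activin A and WT libraries did not overlap.

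SNAI1 ran in another order, with Activin A highest (2.16 ± 1.33 FPKM), then knock-in (0.829 ± 0.516), SB431542 (0.516 ± 0.370) and WT (0.288 ± 0.215), and libraries of all neighbouring groups overlapped. ZEB1 was highest in WT cells (29.5 ± 4.0 FPKM), followed by Activin A (22.9 ± 4.70), SB431542 (19.6 ± 3.07) and knock-in cells (19.4 ± 4.38), with overlap between all neighbours. ZEB2 ran from 12.8 ± 1.87 FPKM in WT through 11.5 ± 3.41 under SB431542 and 11.3 ± 2.21 under Activin A to 10.5 ± 2.55 FPKM in knock-in cells, and no neighbours differed by more than their spread. SNAI2 was at most 0.269 ± 0.251 FPKM, in WT cells, and the other groups were at 0.144 ± 0.0649 (SB431542), 0.124 ± 0.0471 (knock-in) and 0.0859 ± 0.0352 FPKM (Activin A).

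The last comparison asks whether line 2 differs, read through the libraries numbered 2. In the knock-in, Activin A and SB431542 groups alike, library 2 held the most SNAI1 and the least ZEB2 and VIM of its group, and library 3 held the most ZEB1 and ZEB2. In the 6 treated libraries, with treatment as a term, the log2 difference of number 2 from numbers 1 and 3 was 0.75 for SNAI1 (SE 0.20, 95% confidence interval 0.27 to 1.23, adjusted p = 0.20), -0.58 for ZEB2 (SE 0.12, 95% confidence interval -0.88 to -0.29, adjusted p = 0.15) and -0.24 for VIM (SE 0.06, 95% confidence interval -0.40 to -0.09, adjusted p = 0.21) by limma. It was 0.11 for TWIST1 (SE 0.19), -0.43 for TWIST2 (SE 0.33), -0.08 for ZEB1 (SE 0.19) and -0.07 for SNAI2 (SE 0.07), with adjusted p from 0.63 to 0.88. None of the 7 genes was called, where 0.179% of 13999 genes were called and 13.4% had an unadjusted p of at most 0.05, as SNAI1, ZEB2 and VIM had. The fit counts the Activin A and SB431542 libraries of a number as separate replicates although they deviated together, so that number 2 may be 1 culture and these p-values may be too small.

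The untreated knock-in cells were not part of that fit. In them 1 library stands against 2, and values are given without a test. SNAI1 stood at 1.42 FPKM in library 2 against 0.606 and 0.461 FPKM in libraries 1 and 3. ZEB2 stood at 8.35 against 9.96 and 13.3 FPKM, and VIM at 399 against 435 and 462 FPKM. The log2 difference of library 2 from the mean of the other libraries was 0.66 for SNAI1, -0.42 for ZEB2 and -0.17 for VIM, of the same sign as under Activin A (0.93, -0.42 and -0.22) and under SB431542 (0.57, -0.74 and -0.27). If the numbers mark lines, these are the same cultures, so the groups are not independent of each other. In WT cells, whose numbers mark no knock-in line, library 1 held the most SNAI1 and library 2 the most ZEB2. WT library 3 held the most ZEB1, as library 3 did in the other groups.

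Whether Activin A and SB431542 differ in another way in number 2 was fitted as an interaction, in which each arm of number 2 is 1 library. No gene was called or passed on the adjusted p alone, and 1.99% of all genes had an unadjusted p of at most 0.05, with only 2 residual degrees of freedom before limma's moderation. The interaction was 0.45 for TWIST1, -0.60 for TWIST2, 0.36 for SNAI1, -0.38 for ZEB1, 0.31 for ZEB2, 0.05 for VIM and 0.03 for SNAI2, each with an adjusted p of 1.00, which in a design of this size does not show that the treatments act alike in number 2.

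The libraries numbered 2 also stood apart in trophectoderm markers, which summed to 528, 482 and 961 FPKM in the knock-in, Activin A and SB431542 groups against 87.6 to 246 FPKM in the other libraries of these groups. KRT8, which is also in the epithelial list, made up most of these sums in number 2 (428, 334 and 835 FPKM). Without it the other trophectoderm markers summed to 101, 147 and 126 FPKM in number 2 and to 41.4 to 70.8 FPKM in the other libraries of these groups. GATA3 stayed at 0.220 to 1.85 FPKM over the 12 libraries but was also highest in number 2, at 1.125, 1.76 and 1.85 FPKM against 0.331 to 0.739 FPKM in the other libraries of these groups. The summed pluripotency markers were highest there too, at 598, 561 and 712 FPKM. Of 8 pluripotency markers tested in the treated cells, however, 4 were higher in number 2 (median log2 difference 0.06), where 44.4% of all genes were. SOX2 stood at 67.4, 56.9 and 68.0 FPKM in the knock-in, Activin A and SB431542 libraries numbered 2, the highest in none of these groups. In the knock-in, Activin A and SB431542 libraries numbered 2, NANOG stood at 101, 195 and 27.2 FPKM and LIN28A at 285, 200 and 498 FPKM, in each case the highest of its group. In the same libraries PDGFRB stood at 11.4, 8.38 and 15.3 FPKM and RGS5 at 0.966, 2.06 and 0.536 FPKM, again the highest. The summed pericyte markers were highest in number 3 of each of these groups. The part of these markers in the SNAI1, ZEB2 and VIM levels of number 2 was not tested. No gene of the partner, regulator, EMT-linked factor, epithelial, mesenchymal, intermediate filament or TGF-beta lists was called for number 2 by the fit without a block. Of 22 epithelial genes 15 were higher in number 2, as were 18 of 29 mesenchymal genes, where 44.4% of all genes were. The largest epithelial log2 differences were those of KRT18 (2.74, SE 0.34), KRT8 (2.55, SE 0.47) and CDH1 (1.81, SE 0.30). With the number as a replicate block 3 epithelial genes were called higher, and without Activin A library 1 there was 1. The blocked calls set number 2 against the differences within numbers, so they rest still more on counting its libraries as separate cultures.

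The members differed in which of them varied together. Over the 12 libraries Pearson's r of log2(FPKM + 1) was 0.80 between TWIST1 and TWIST2, 0.80 between TWIST1 and VIM and 0.85 between TWIST2 and VIM. It was -0.82 between TWIST1 and ZEB1, -0.69 between ZEB1 and VIM, although these are both on chromosome 10, and 0.47 between ZEB1 and ZEB2. SNAI1 and SNAI2 had an r of -0.37, and SNAI1 and ZEB2 one of -0.61. These values describe 12 libraries that fall into 4 groups and may share lines, so the difference between WT and the other groups weighs in each of them.

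Among 10501 genes with a symbol and a mean of at least 1 FPKM, the genes whose levels over the 12 libraries were most like TWIST1 were MSRB1 (r = 0.978), GPR19 (0.972) and METRNL (0.970). Those most like TWIST2 were PER1 (0.963), ARHGAP23 (0.963) and TEX261 (0.957). ZEB1 was followed most closely by AAK1 (0.973), PLXNC1 (0.968) and EXD2 (0.963), and ZEB2 by NREP (0.939), TFAP4 (0.934) and TBC1D14 (0.922). Genes close to VIM included NOD1 (0.960) and LATS2 (0.955), the kinase described above. SNAI1 and SNAI2, with means of 0.949 and 0.156 FPKM over the 12 libraries, were too low for this ranking.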

How the data were processed

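Gene levels were used as the authors deposited them, in FPKM, in a table of the WT and knock-in libraries and a table of the Activin A and SB431542 libraries. From oligo(dT)-selected RNA, the authors removed adapters by Trim Galore, mapped the reads on the Ssc11.1 genome by Hisat2 (HISAT2 2.0.4 in the submitters' processing notes) and computed levels by StringTie 1.3.3. FPKM relates each gene to the fragments of its library, so a few abundant genes can shift all others. The authors' read counts (featureCounts 1.6.4) and DESeq2 tests were not used here.

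Symbols came from the tables (20394 genes) and from a list of gene names (851 more). Genes that reached 0.1 FPKM in no fewer than 3 libraries of their table were tested on log2(FPKM + 1) by limma 3.58.1 with a variance trend (R 4.3.3, with version 1.17.8 of the data.table package), within each table only, with Benjamini-Hochberg adjustment over all genes tested. All 7 genes passed this filter in both tables. Levels and figures were made with Python 3.11.15, pandas 2.3.3, numpy 2.4.6 and matplotlib 3.10.9. Scripts were tested on simulated data.

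The 7 genes, the lists and the tests were chosen with earlier results of these data known. Named beside the 7 were, per list and comparison, the called genes, fixed marker genes and the 3 genes most like each member. Values were given per list for up to 3 higher and 3 lower called genes, by size of change. CDH1 and, for Activin A against SB431542, list genes called in the blocked fit were named as well. Library numbers were taken to pair Activin A with SB431542, since deviations from the group means correlated by 0.404, 0.59 and 0.541 within numbers over 13696 genes. Within numbers, untreated knock-in libraries correlated by 0.51, 0.641 and 0.67 with Activin A and by 0.515, 0.64 and 0.575 with SB431542 libraries, a hint from the data, not the labels, that numbers follow lines. Between knock-in and WT the numbers did not pair (-0.0169, 0.01 and 0.0961). Alternatives were the pseudocount, the filter, TPM, median-ratio and quantile scaling, no trend, the block, the call rule and each library left out. Counts of called list genes under these alternatives were added after the data had been seen. Of the genes most like VIM, 1 is not reported here.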

Additional observations from a re-analysis of the deposited data

Results flagged for a closer look

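TWIST2, SNAI2, ZEB1 and ZEB2 were noted because the difference of Activin A from SB431542 had opposite signs in different library numbers. For TWIST2 the log2 difference was 0.0035 in number 3 and -1.08 and -1.14 in numbers 1 and 2. For SNAI2, at levels under 0.22 FPKM, it was 0.013 in number 3 and -0.18 and -0.05 in the other numbers. These differences of number 3 from the others were not tested. For ZEB1 the log2 difference was -0.049 in number 2 and 0.33 and 0.34 in numbers 1 and 3, and for ZEB2 it was 0.21 in number 2 and -0.15 and -0.065 in numbers 1 and 3. The interaction of treatment with number 2 was -0.38 for ZEB1 (SE 0.38) and 0.31 for ZEB2 (SE 0.24), each with a limma adjusted p of 1.00, in a fit with 1 library of number 2 per treatment.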

How the results depend on the processing

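Of 357 log2 differences of the 7 genes under alternatives, 338 kept their direction and their side of the threshold, 6 lost it and 13 changed sign. The cause of these changes was not tested. Most of these differences were not called in the main fit, so they had no call to lose. The 2 that were called, TWIST1 and TWIST2 for knock-in against WT, kept their call in 12 of 15 alternatives each. Knock-in against WT called 225 genes higher and 99 lower, and 346 and 192 with a pseudocount of 0.1, 181 lower with 0.01, 157 and 42 without the filter, 156 lower as TPM, 684 and 328 on the adjusted p alone, and 117 to 303 higher and 28 to 143 lower with 1 library left out. Numbers did not pair these groups, and as a replicate block they left 172 higher and 60 lower, with TWIST1 at 1.42 (adjusted p = 0.055), neither KRT8 nor INA called, and 1 of the 2 called EMT-linked factors left. With libraries left out TWIST1 lay between 1.24 and 1.61 and TWIST2 between 1.42 and 1.95.

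Activin A against SB431542 called 8 higher and 5 lower, and 5 and 3 with a pseudocount of 0.01, 3 and 2 without the filter, 2 and 3 with a filter of 1 FPKM, 3 higher without the trend, 13 higher on the adjusted p alone, 73 and 26 with the replicate block, and 0 to 4 higher and 0 to 1 lower with 1 library left out. ZEB2 changed sign, to 0.0020 and 0.0023 with pseudocounts of 0.1 and 0.01, 0.0088 and 0.011 with median-ratio and quantile scaling, and -0.25 to 0.15 with libraries left out. Number 2 against 1 and 3 called 18 higher and 7 lower, and 1 and 3 with a pseudocount of 0.1, 1 and 4 with 0.01, 1 and 2 without the filter, 5 and 4 as TPM, 65 and 33 with the replicate block, and 0 to 6 higher and 0 to 7 lower with 1 library left out, where a lone library of number 2 is assumed to vary like the others. There TWIST1 ran from -0.12 to 0.33, TWIST2 from -0.73 to -0.13 and ZEB1 from -0.27 to 0.11. The SNAI1 interaction was -0.051 and -0.23 with pseudocounts of 0.1 and 0.01. A filter of 1 FPKM leaves no value for SNAI1 and SNAI2, whose low levels depth limits most, and the interaction was not run with a block or with libraries left out.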

Other observations

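Single genes of the neural and pluripotency marker lists were called beside those described above. In the neural list MSX2, a homeobox factor of neural crest and limb mesenchyme, was at 0.0457 ± 0.0357 FPKM in WT and 2.65 ± 1.77 FPKM in knock-in cells (log2 fold change 1.70, limma adjusted p = 0.022), while PAX6, a factor of neuroectoderm, fell from 16.6 ± 9.16 to 2.94 ± 1.81 FPKM (log2 fold change -2.17, limma adjusted p = 0.040). In the treated cells MSX2 was higher in number 2 than in numbers 1 and 3 (log2 difference 1.49, limma adjusted p = 0.037), as was ESRRB, an orphan receptor of pluripotent cells (1.31, limma adjusted p = 0.037). The libraries of a number deviated together, so number 2 may be 1 culture and these p-values may be too small. Neither gene was called when any 1 treated library other than Activin A library 1 was left out, where 0 genes were called higher.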
